A study of Danio rerio with 4 samples.

Results

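The cytosolic ribosomal protein genes encode the protein part of the ribosome, the machine that makes protein from mRNA. They were described here in cells sorted with an endothelial reporter from the posterior cardinal vein of the zebrafish. This large vein drains the trunk of the embryo, and the sorted cells also held erythroid and epidermal marker transcripts. Members were the rows of the deposited count table whose Ensembl symbol named a large subunit (rpl) or small subunit (rps) protein and that held 10 or more counts over all libraries. The rps6k kinase genes, which share the first letters, were left out. Of 32434 gene rows, 73 had such a symbol and 72 reached the count minimum, 40 of the large and 32 of the small subunit. The remaining row had 0 counts in every library.

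The embryos were of the strain Tg(fli1:gal4;uasKaede) and 24 hours old. In this strain the endothelial gene fli1 drives Gal4, which switches on Kaede, a green fluorescent protein that becomes red when illuminated. Either the ventral or the dorsal part of the vein was converted, and the converted cells of 6 embryos per group were collected by flow sorting. There were 2 ventral and 2 dorsal libraries, and both sides share the strain, the stage and the light treatment. Whether the 2 libraries of a side are separate pools of embryos is not stated in the labels, and the p-values therefore cover the spread among these 4 libraries alone, which may be technical.

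A vertebrate ribosome is assembled in the nucleolus from ribosomal RNA and many different proteins, most of them present in a single copy. Their mRNAs begin with a run of pyrimidines, the 5′ terminal oligopyrimidine (TOP) tract, through which the TOR pathway adjusts their translation as a group. Growing embryonic cells devote much of their mRNA to these genes. In humans, loss of a single copy of one of several ribosomal protein genes causes Diamond-Blackfan anaemia, a failure of red cell production.

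Gene counts totalled 51376 to 115876 per library, with dorsal library 2 the shallowest. CEL-Seq counts the 3′ end of each transcript, so levels were compared between genes as CPM (counts per 1000000 gene counts) without a correction for length. Each primer carried a random identifier, and no gene exceeded 1024 counts, the number of distinct identifiers of 5 bases, so that counts near this ceiling are compressed. The most abundant member reached 644 counts, and 9 other genes lay above 900. Endothelial marker transcripts were scarce and unequal between the sides. Of 14 matched markers 13 had a count and ERG was at 0, with a summed level of 1144 to 1208 CPM in ventral and 388 to 487 CPM in dorsal libraries. Erythroid markers below the ceiling summed to 4640 to 4981 CPM in ventral and 5002 to 6783 CPM in dorsal libraries over 6 genes, with none at 0. The globin genes hbbe3 and hbae3 were left out of this sum because they lay near the ceiling, at 972 to 1021 counts per library. By mean CPM they ranked 7 and 6 among all genes. Epidermal markers summed to 1471 to 3468 CPM in ventral and 613 to 993 CPM in dorsal libraries, with 9 of 10 counted and cldne at 0. In ventral library 1 the epidermal sum included krt4 at 535 CPM and cyt1l at 600 CPM, both at 0 in the other libraries. Myeloid markers summed to 350 CPM in dorsal library 2 and to at most 36.9 CPM in the others, with 3 of 6 rows counted and MPEG1 at 0. Most of the dorsal library 2 sum came from lyz alone, at 331 CPM from 17 counts. The share of ribosomal protein transcripts that came from each cell type was not tested, and in such bulk samples fewer cells of a type and less RNA per cell cannot be told apart.

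The 72 ribosomal protein genes held a large and similar share of all gene counts on both sides. In ventral libraries 1 and 2 this share was 19.3% and 19.6%. Dorsal libraries 1 and 2 had 20.2% and 18.1%. The dorsal libraries thus enclosed the ventral ones, and the means of 19.4% ± 0.251 (SD, n = 2) and 19.2% ± 1.5 differed by less than the dorsal spread. Exact binomial intervals (95%, counting error only) were 17.8% to 18.4% for dorsal library 2 and 19.99% to 20.45% for dorsal library 1, so the 2 dorsal libraries differed by more than counting error. Dorsal library 2, the shallowest with 51376 gene counts, also had the largest share of the 9 genes above 900 counts. This share was 17.2% against 7.93% to 11.3% in the others. The ceiling limits the counts of these genes, so their share also depends on depth. With these genes left out, the ribosomal protein share was 21.1% and 22.1% in the ventral and 22.0% and 21.9% in the dorsal libraries. Dorsal library 2 was then within the range of the other libraries. Correction for repeated identifiers, with all genes kept, gave lower shares of 15.6% and 15.9% in the ventral and 16.7% and 13.4% in the dorsal libraries. Counts at the ceiling were capped just below it for this correction. The corrected values of genes near the ceiling, and with them these shares, are therefore unstable.

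**Figure D1:**
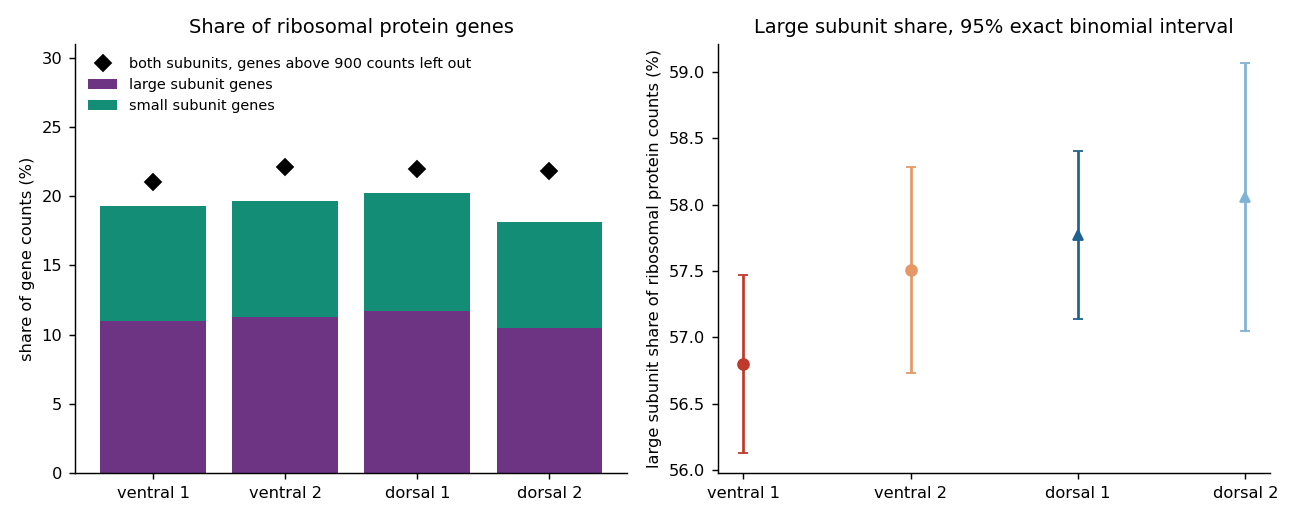
Left, percent of gene counts held by large subunit (purple) and small subunit (green) genes in each library as stacked bars, with the total after leaving out genes above 900 counts as black diamonds. Right, large subunit share of the ribosomal protein counts in percent with 95% exact binomial intervals, on an axis that does not start at 0. The bars end between 18.1% and 20.2%, the diamonds lie between 21.1% and 22.1%, and the right panel spans 56.8% to 58.1%.

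Most members were expressed within a narrow range. The median level was 2736 CPM (mean over the 4 libraries), the quartiles were 2290 and 3140 CPM, and 65 of 72 genes were within 2-fold of the median. Among the 100 most abundant genes of the whole table, 55 were ribosomal protein genes. By symbol alone, 5 rows were set apart as like-named genes or a binding partner (among them RPL36AL, RPL22L1, RPL7L1 and rps19bp1). The highest of the remaining 67 exceeded the lowest 4.58-fold. No row carries the symbol rpl36a, so RPL36AL may be the row of that subunit gene. At 3640 CPM it lies inside the range of the 67. The identifier ceiling compresses this range, since correcting for repeated identifiers multiplies the highest member count by 1.58 and the lowest count of the 67 genes by 1.02.

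The stalk genes RPLP0 and RPLP1 stood at the top, and the stalk gene rplp2 was matched to no row. RPLP0 (ENSDARG00000051783) anchors the stalk, the arm of the large subunit that recruits the elongation factors, and RPLP1 (ENSDARG00000021864) forms its flexible tips. RPLP0 measured 4944 and 5382 CPM in the ventral libraries and 5558 and 5898 CPM in the dorsal libraries, the highest member in each library. RPLP1 measured 4797 and 4791 CPM in the ventral and 4419 and 4808 CPM in the dorsal libraries, and ranked second in each. The mean gap between them, 742 CPM, exceeded their pooled SD of 311 CPM, and RPLP1 stood 647 CPM above the next gene against a pooled SD of 218 CPM.

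Below RPLP0 and RPLP1 the order was gradual. The large subunit genes rpl7a and RPL23 followed at 4057 ± 243 and 4045 ± 188 CPM (SD, n = 4 libraries). RPS2, which lies near the mRNA entry of the small subunit, averaged 3845 ± 329 CPM. RPS14, a gene within the region deleted in the human 5q- syndrome, averaged 3745 ± 39.2 CPM. RPL36AL, RPL35A and RPS12 came next at 3640 ± 249, 3561 ± 203 and 3550 ± 66.4 CPM. The tenth, rps27a at 3486 ± 92.7 CPM, encodes a small subunit protein fused to ubiquitin. Of the 71 pairs of neighbours in the order, 64 differed by less than their pooled SD, which sorting many genes of like level brings about. From rpl7a down to RPL5 (ENSDARG00000015862) no neighbours differed by more. Genes further apart in the order can still differ. Across these 72 genes, Spearman's rho between libraries was 0.936 for the ventral pair, 0.916 for the dorsal pair and 0.897 to 0.928 between the sides, a description in which all genes of a library share its depth.

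**Figure D2:**
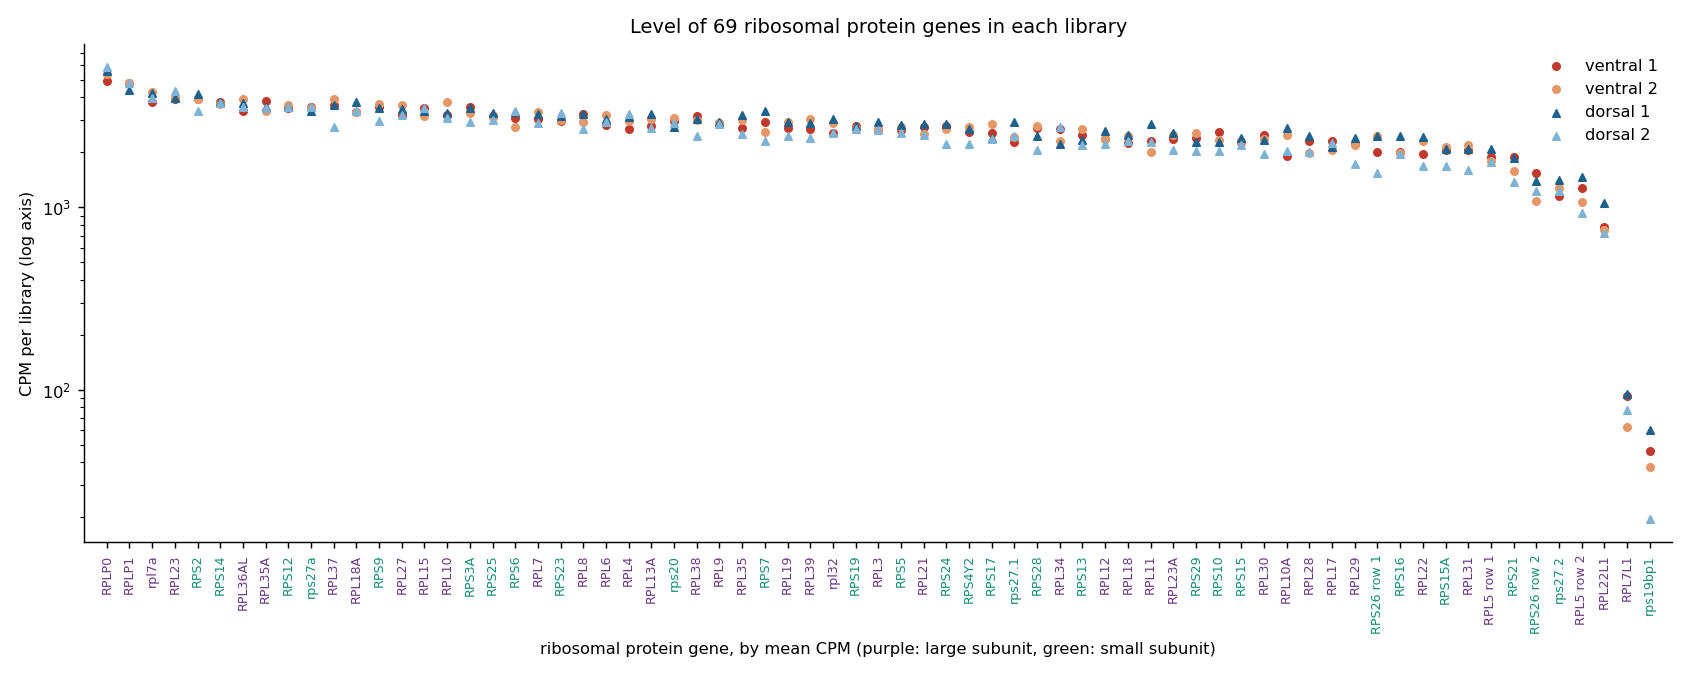
CPM of 69 of the 72 genes in each library on a log axis, ordered by mean CPM, with ventral libraries as circles, dorsal libraries as triangles, and names in purple for the large and green for the small subunit. RPLP0 and RPLP1 lead, 63 of the genes shown lie within 2-fold of the median of 2736 CPM, and RPL7L1 and rps19bp1 fall far below the rest.

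The lower end was made up mostly of the lesser members of paralogue pairs. The 5 least abundant members were, in falling order, rps27.2, RPL5 (ENSDARG00000020197), RPL22L1, RPL7L1 and rps19bp1. Their mean levels were 1264 ± 107, 1188 ± 235, 830 ± 156, 82.0 ± 14.8 and 40.9 ± 17.1 CPM (SD, n = 4 libraries). RPL7L1, known in mammals as a factor of large subunit maturation, was counted 10 and 5 times in the ventral and 11 and 4 times in the dorsal libraries. The gene rps19bp1, named for a partner of RPS19 and not a subunit of the ribosome, was counted 5 and 3 times in the ventral and 7 times and 1 time in the dorsal libraries.

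Single genes varied little between libraries. The median coefficient of variation over the 4 libraries was 8.63%. Counting error alone, taken as the square root of the count, would give a median of 6.84%. Where the identifier ceiling limits the counts, the counting error of high counts is smaller than this. The lowest values were RPS14 at 1.05%, RPL9 at 1.24%, RPS12 at 1.87% and RPS19, the gene most often mutated in Diamond-Blackfan anaemia, at 1.95%. Counting error alone would give these genes 5.78%, 6.58%, 5.93% and 6.76%, so their low values do not show a steadier level. Among the 67 genes without those 5 rows, RPS26 (ENSDARG00000030408) varied most, at 20.6%. The proportions among members were compared between 2 libraries at a time by chi-square divided by its degrees of freedom. This measure is near 1 for counting error alone where no ceiling limits the counts. The ceiling lowers that expected value for high counts, so members and less abundant genes are not on 1 scale. For members the measure was 1.19 for the ventral pair, 1.54 for the dorsal pair and 1.31 to 1.497 for pairs across the sides. The other tested genes below the ceiling gave 1.95, 2.095 and 1.92 to 4.12 in the same order. For members, all pairs across the sides thus lay above the ventral pair and below the dorsal pair. For the other genes, pairs across the sides ran from below the ventral pair to above the dorsal pair. Where proportions differ, this measure also grows with the counts of the libraries, which were unequal. Whether the make-up of the ribosomal protein transcripts differs between the sides was therefore not settled.

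Large and small subunit genes had similar levels per gene. The mean level per gene was 2737 and 2822 CPM for large and 2602 and 2606 CPM for small subunit genes in the ventral libraries. In the dorsal libraries it was 2920 and 2627 CPM for large and 2668 and 2372 CPM for small subunit genes. The large subunit mean was above the small subunit mean in each library, with 40 against 32 genes behind them and with the stalk genes counted in the large subunit. The ratio of summed large to small subunit counts was 1.31 in ventral library 1 and 1.35 in ventral library 2. Its size depends on the 40 and 32 rows matched, and some symbols of both subunits were matched to no row. It was 1.37 in dorsal library 1 and 1.38 in dorsal library 2. The 2 sides did not overlap in this ratio, but the gap between ventral library 2 and dorsal library 1 was small. As a share of ribosomal protein counts the large subunit held 57.5% (interval 56.7% to 58.3%) in ventral library 2 and 57.8% (57.1% to 58.4%) in dorsal library 1. With 2 libraries a side an exact permutation test, 2-sided, cannot give a p below 0.333, and the difference in ratio is given as a description.

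Of the 72 members, 70 were abundant enough to be tested between the sides. In edgeR's quasi-likelihood test over 1399 genes, with p adjusted by Benjamini-Hochberg, 0 of the 70 passed a threshold of 0.05, higher or lower in ventral. Over all tested genes 6 were called, all higher in ventral, a background of 0.429%. Leaving out single libraries changed both the number of genes called and the number tested. Without ventral library 1, ventral library 2, dorsal library 1 and dorsal library 2, 1508, 2111, 1509 and 2132 genes were tested. Such fits leave a side with 1 library, so their calls are not compared with the main fit. The median log2 fold of members was 0.016, 0.038, -0.033 and 0.069 in the same order. At an unadjusted p under 0.05 in the main fit there were 0 members, against 170 genes or 12.2% of those tested. DESeq2 called 0 members with 0 at an unadjusted p under 0.05, and limma-voom called 0 with 1. Both methods also called 0 of all 1399 genes. At an unadjusted p under 0.05, DESeq2 had 51 of all genes higher and 7 lower in ventral, and limma-voom 102 and 76. The log2 folds of the members (ventral over dorsal) ran from -0.26 to 0.27, with 33 above 0 and 37 below and a median of -0.0073, where all tested genes had a median of -0.033. Their quartiles were -0.056 and 0.085, those of all tested genes -0.34 and 0.26. Scaled to the ERCC spike-in totals instead, 68 members were above 0 with a median of 0.27, and the median of all tested genes was 0.22.

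The error of these folds was small enough to bound them. The 95% interval of every one of the 70 members stayed between 0.624-fold and 1.53-fold, and 64 of them stayed within 1.5-fold in either direction. Over all tested genes, 399 or 28.5% had an interval within 2-fold. The median SE was 0.16 on the log2 scale for members and 0.42 for all tested genes, and the members are also among the most abundant genes. A difference of 2-fold between the sides was therefore outside the interval of each tested ribosomal protein gene, under the edgeR fit with TMM scaling.

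**Figure D3:**
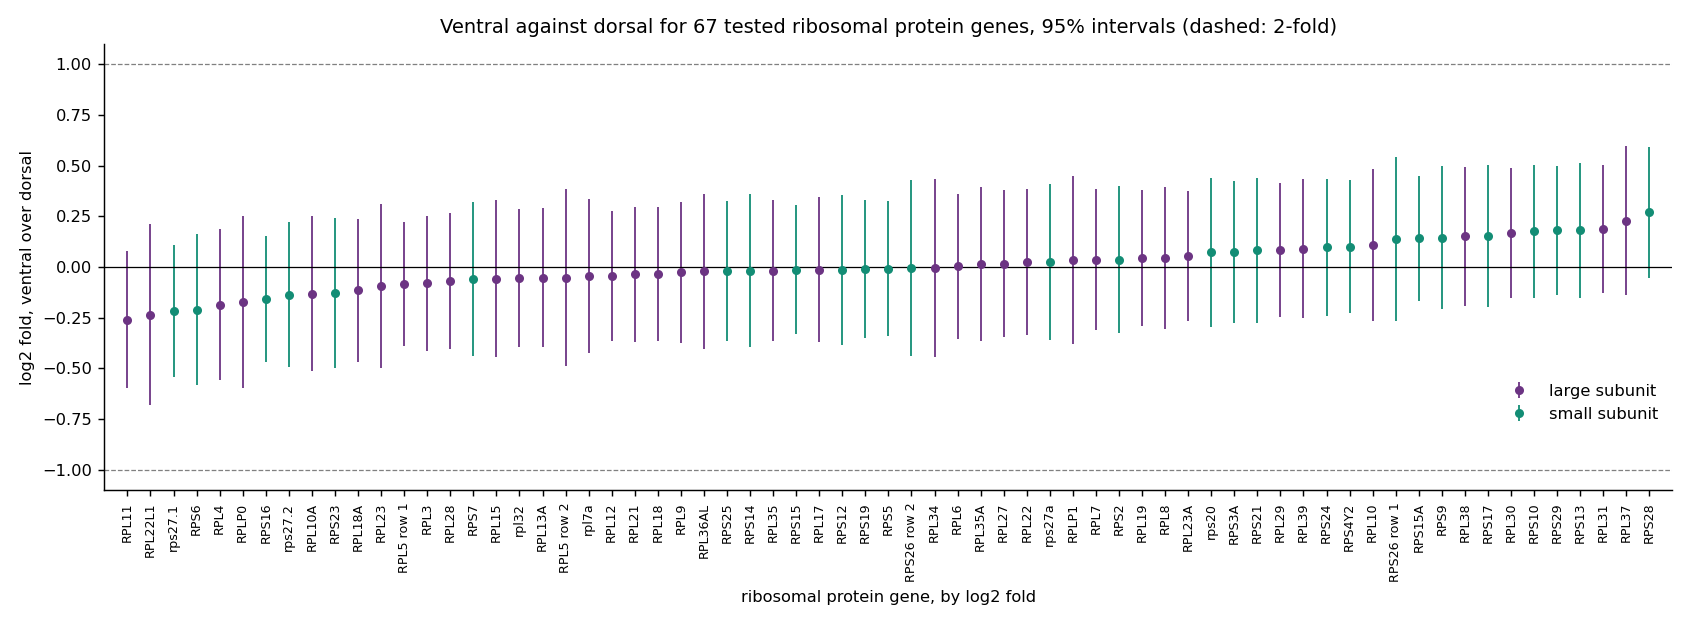
Log2 fold of ventral over dorsal with its 95% interval for 67 of the 70 tested ribosomal protein genes, in order of fold, with large subunit genes in purple, small subunit genes in green and dashed lines at 2-fold. The points run from -0.26 (RPL11) to 0.27 (RPS28), and each interval contains 0 and stays inside the dashed lines.

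RPS28, a small protein at the mRNA exit of the small subunit, had the smallest p. It measured 2731 and 2792 CPM in the ventral and 2468 and 2063 CPM in the dorsal libraries, so that both ventral libraries lay above both dorsal ones. Its log2 fold was 0.27 ± 0.14 (SE; adjusted p = 0.529, edgeR), which did not pass. RPL11, which with RPL5 and the 5S ribosomal RNA holds back Mdm2 and so stabilises p53 when assembly fails, had the lowest fold. It measured 2315 and 2012 CPM in the ventral and 2857 and 2277 CPM in the dorsal libraries. In this plain CPM dorsal library 2 lay inside the ventral range. The log2 fold of RPL11 was -0.26 ± 0.15 (adjusted p = 0.587, edgeR). This fold rests on TMM scaling, with a factor of 0.895 for dorsal library 2 and 1.01 to 1.07 for the others. Such scaling raises dorsal library 2 relative to plain CPM.

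The other genes nearest to a difference did not pass either. Above 0 these included RPL37 at a log2 fold of 0.23 ± 0.16 (SE), RPL31 at 0.19 ± 0.14, RPS29 at 0.18 ± 0.14, RPS13 at 0.18 ± 0.15, RPS10 at 0.18 ± 0.15 and RPL30 at 0.17 ± 0.14. Below 0 they were rps27.1 at -0.22 ± 0.15, RPS6 at -0.21 ± 0.17, RPL22L1 at -0.24 ± 0.20, RPS16 at -0.16 ± 0.14, RPL4 at -0.19 ± 0.17, RPLP0 at -0.17 ± 0.19 and rps27.2 at -0.14 ± 0.16. RPS6 is the small subunit protein that S6 kinase phosphorylates downstream of TOR, and RPL4 lines the tunnel through which the new protein leaves. RPS6 measured 3090 and 2741 CPM in the ventral and 3331 and 3348 CPM in the dorsal libraries, so that the sides did not overlap. The stalk gene RPLP1 stood at 0.035 ± 0.19.

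By plain CPM, the ventral pair of libraries was above the dorsal pair in 9 of the 70 members, or 12.9%, against 19.4% of all tested genes. It was below the dorsal pair in 7 members, or 10%, against 19.5% of all tested genes. Members whose sides were separate were thus no more frequent than among all tested genes. Of the 39 large subunit genes tested 16 had a log2 fold above 0, with a median of -0.022, and of the 31 small subunit genes 17, with a median of 0.024. The 21 tested rows of genes mutated in human Diamond-Blackfan anaemia, a group put together after the values were seen, had 10 folds above 0 and 11 below, a median of -0.0059 and 0 calls.

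**Figure D4:**
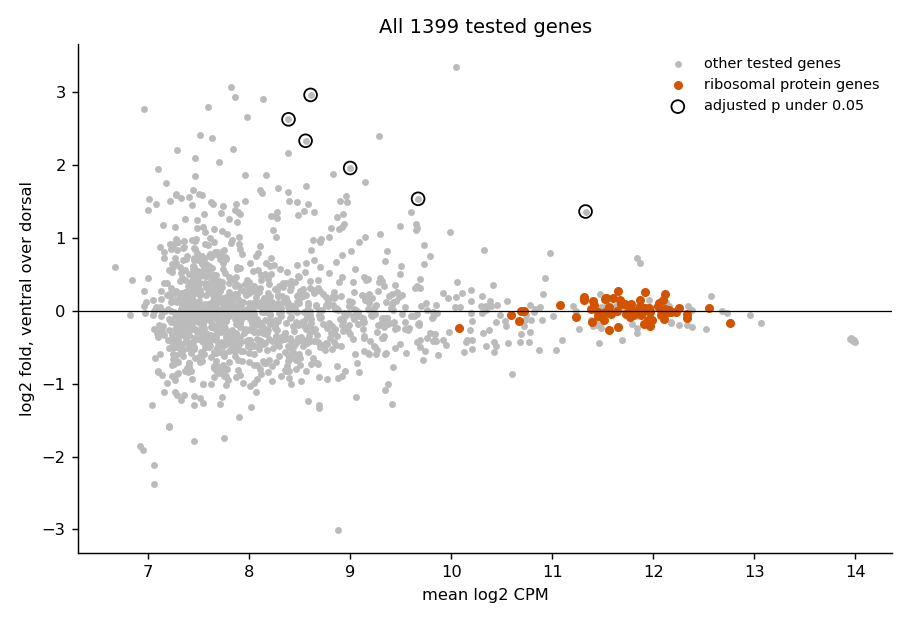
Log2 fold of ventral over dorsal against mean log2 CPM for the 1399 tested genes (grey), with the 70 ribosomal protein genes in orange and the 6 called genes circled. The orange points lie at high CPM in a band from -0.26 to 0.27, and none is circled.

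Several ribosomal protein symbols were carried by a pair of rows or had a like-named partner, and 4 such pairs in which both rows were well counted are described here. The RPL5 and RPS26 rows were paired because they carry the same symbol and the other pairs by related symbols, with no comparison of sequences. Shares are given for the less abundant row of a pair, with exact binomial intervals (95%) that cover counting error only. Reads shared by near-identical copies cannot be traced in these counts, so the split within a pair is uncertain where the copies are alike. RPL5, the partner of RPL11 in the 5S particle, had a pair of rows, of which ENSDARG00000020197 held 40.4% and 37.4% of the counts in the ventral and 41.3% and 34.5% in the dorsal libraries. The sides overlapped. In the RPS26 pair, ENSDARG00000037071 held 43.2% and 30.6% in the ventral and 36.3% and 44.4% in the dorsal libraries. This was the least stable pair, since the intervals of ventral library 1 (38.2% to 48.4%) and ventral library 2 (25.3% to 36.4%) did not overlap although both come from one side.

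The shares of the remaining pairs ranged over fewer percentage points than that of RPS26, which does not show that they were steady at these counts. The share of rps27.2 in the rps27.1 and rps27.2 pair was 33.5% and 34.5% in the ventral and 32.5% and 33.2% in the dorsal libraries. The sides were separate, by 1.18 percentage points between the means, but all intervals overlapped. RPL22 and RPL22L1 are RNA-binding proteins whose balance is known from zebrafish and mouse to bear on blood cell development. RPL22L1 held 28.6% and 24.7% of the pair in the ventral and 30.4% and 29.8% in the dorsal libraries, means of 26.7% ± 2.78 and 30.1% ± 0.429 (SD, n = 2). The sides were separate, and the interval of ventral library 1 (23.5% to 34.1%) contained both dorsal values. Neither gene of the pair passed edgeR's test. RPL7L1 gave 30 counts against 1117 of RPL7 over all libraries, 1.87% to 2.94% of their sum.

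**Figure D5:**
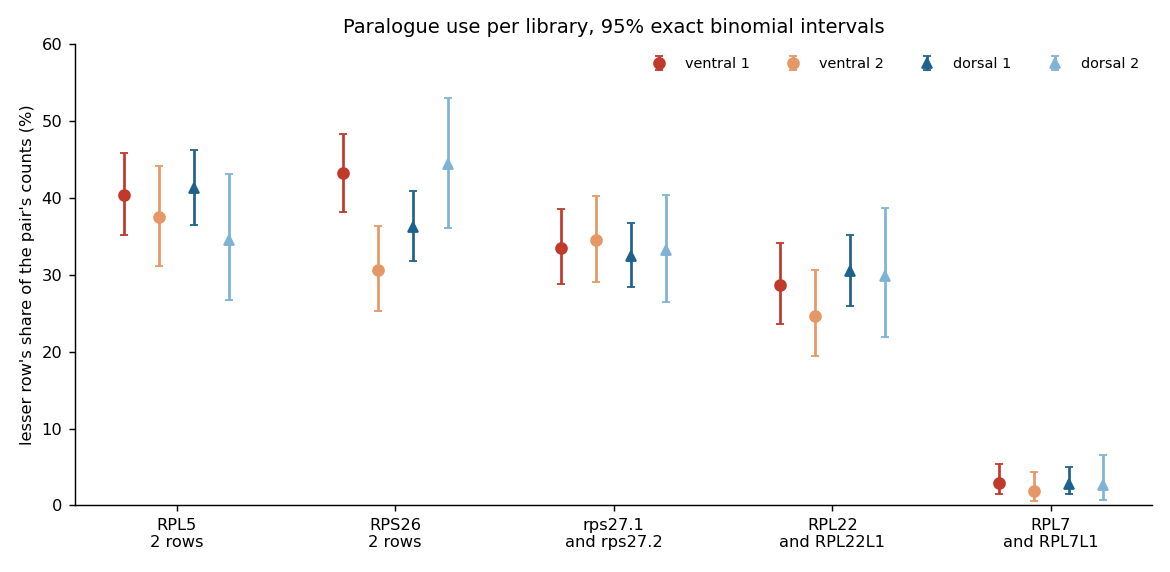
Share of the less abundant row in each pair's counts, in percent, with 95% exact binomial intervals, for the 2 ventral libraries (circles) and the 2 dorsal libraries (triangles). Within a pair the intervals overlap across libraries except for RPS26, where ventral library 1 at 43.2% and ventral library 2 at 30.6% are apart.

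None of the tested genes in 5 related lists was called in edgeR's main test, with all 4 libraries kept. At an unadjusted p under 0.05 there were 2, both with a fold above 0. They were NOP56, 1 of 15 tested ribosome biogenesis genes, and hnrnpa1a, 1 of 15 tested genes of the TOP list. Over all tested genes the share was 12.2%, or 170 of 1399, of which 105 were higher in ventral. RACK1, a signalling scaffold on the small subunit, is a ribosomal protein named outside the rpl and rps symbols. It averaged 2856 CPM with a log2 fold of -0.077 ± 0.15 (SE), within the range of the members. Of 42 ribosome biogenesis genes, all with a count, 15 were tested, 8 with a fold above 0, and 0 passed (median 0.15). NOP56, a core protein of the particles that methylate ribosomal RNA, had counts of 71 and 54 in the ventral and 58 and 18 in the dorsal libraries. Its log2 fold of 0.61 ± 0.23 did not pass (adjusted p = 0.308, edgeR). EBNA1BP2 and the pseudouridine synthase gene DKC1 stood at 0.89 ± 0.40 and 0.63 ± 0.35, and the methyltransferase gene FBL, the helicase gene DDX21 and the histone chaperone gene npm1a at -0.37 ± 0.34, -0.33 ± 0.48 and -0.25 ± 0.43.

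Among other mRNAs known, mostly from mammals, to carry a TOP tract, 15 of 21 matched genes were tested and 0 passed, with 4 above 0 and a median of -0.10. This list also holds RACK1 and npm1a. The splicing regulator gene hnrnpa1a was counted 77 and 44 times in the ventral and 43 and 11 times in the dorsal libraries. Its log2 fold of 1.06 ± 0.28 did not pass with all 4 libraries kept (adjusted p = 0.157, edgeR). The fold was 0.86 without ventral library 1 and 1.26 without ventral library 2. It was 1.44 without dorsal library 1 and 0.90 without dorsal library 2. EEF1G and EEF1B2, subunits of the factor that recharges elongation factor 1A, stood at 0.23 ± 0.15 and 0.13 ± 0.19. The initiation factor gene eif3ea, the chaperone gene BTF3 and the poly(A)-binding protein gene pabpc1a stood at -0.43 ± 0.26, -0.25 ± 0.15 and -0.20 ± 0.18. Of 14 TOR and MYC genes matched, 4 were tested, 3 of them above 0, and 0 passed. The translation repressor genes EIF4EBP2 and EIF4EBP3 stood at 0.74 ± 0.46 and 0.58 ± 0.56, MYCN at 0.30 ± 0.59 and its partner MAX at -0.17 ± 0.40. The value of EIF4EBP3, with 23 and 1 dorsal counts, became 3.13 without dorsal library 1 and 0.12 without dorsal library 2. That of MYCN became -0.45 and 0.96 without the same libraries. The 65 mitochondrial ribosomal protein genes summed to 2362 and 2905 CPM in the ventral and 2951 and 2530 CPM in the dorsal libraries, about the level of a single cytosolic member. Of these only MRPL11 and MRPL28 were tested, at -0.54 ± 0.61 and 0.61 ± 1.07. The value of MRPL11 became 0.12 without ventral library 1 and -1.39 without ventral library 2.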

How the data were processed

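RNA from sorted cells was measured in 4 CEL-Seq libraries with synthetic ERCC spike-in RNAs, per the labels' protocols. Per the submitters' processing notes, which give neither roles nor sequence of steps, the tools were CASAVA 1.8, Bowtie2 2.1.0 and HTSeq 0.5.4p3, with build Zv9. The authors deposited whole-number counts per gene. The sources used here state neither whether reads or distinct identifiers were counted nor how strand was handled, and the ceiling of 1024 was inferred from the values. Rows that name no gene held 96.4% to 97.4% of each column and were left out.

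Symbols came from a table of Ensembl identifiers (20769 of 32434 genes) and are printed as given there, some in human form such as RPS4Y2. The symbols rpl13, rpl14, rpl24, rpl26, rpl27a, rpl36, rplp2, rps3, rps18, rps27l and rpsa were matched to no row and are not analysed here. No sequences are shown. A few members are counted in all totals but not reported here by name or in the plots by gene.

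The table was fitted whole with edgeR 4.0.16 (R 4.3.3): filterByExpr, TMM, quasi-likelihood F test, 2-sided, adjusted by Benjamini-Hochberg over 1399 genes. SE was the log2 fold over the root of F, and intervals used the t quantile at the total degrees of freedom. The fit was tested on simulated data. Replicate numbers follow sample order. The sample numbers in the titles run in adjacent ventral and dorsal pairs, but no label says that they mark a shared batch, and the libraries were not paired in the fit. Apart from these, folds are given for the 8 members per direction with the smallest p, the stalk genes, and 3 genes per direction of each related list, by smallest p. Alternatives were DESeq2 1.42.0, limma-voom (limma 3.58.1), other scalings and filters, correction for repeated identifiers and leaving out each library. The members and lists were chosen with earlier results of these data known. The scaling to the ribosomal protein sum and the fit with a block for adjacent title numbers were added after the data were seen.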

Additional observations from a re-analysis of the deposited data

How the results depend on the processing

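No ribosomal protein gene was called under any of the 13 alternatives. With ERCC scaling, without the filter, with DESeq2 and with limma-voom, 0 genes of any kind were called. These settings therefore do not set the members apart from other genes. Scaling to the ribosomal protein sum makes the members' total equal between libraries, so it could not show a shift of the members as a group. The median log2 fold of tested members moved with 1 of the 13 alternatives. It became 0.27 when scaled to ERCC totals, which also moved the median of all tested genes to 0.22. Under that scaling 68 of 70 members were above 0 and RPLP0 turned to 0.15, RPS6 to 0.093, RPL4 to 0.12, rps27.1 to 0.025, RPS16 to 0.067 and rps27.2 to 0.11. Among related genes RACK1 turned to 0.15, npm1a to 0.079, pabpc1a to 0.12 and MAX to 0.12. Dorsal library 2 stood apart in this measure, with 4.68 gene counts per ERCC count against 9.68 to 12.5 in the others. Without single libraries the folds of RPLP0 ranged from -0.32 to 0.022, those of RPLP1 from -0.13 to 0.25, DDX21 from -0.50 to 0.16, npm1a from -0.99 to 0.30, EEF1B2 from -0.014 to 0.29, MYCN from -0.45 to 0.96, MAX from -0.41 to 0.012, EIF4EBP3 from 0.12 to 3.13 and MRPL11 from -1.39 to 0.12. The ventral minus dorsal difference in ribosomal protein share was 0.289 percentage points, -0.770 without dorsal library 2 and 1.35 without dorsal library 1.

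Over all genes the 6 called higher became 0 with ERCC scaling, without the filter, with DESeq2 and with limma-voom, where 20, 260, 51 and 102 were higher at an unadjusted p under 0.05. The fit without the filter tested 4163 genes and the others 1399. They became 18 without genes above 900 counts and 21 with counts corrected for repeated identifiers, where 1 was called lower. With a replicate block for adjacent title numbers 10 were called higher, no named fold changed sign, and the deviations of like-numbered libraries from their group means had a correlation of -0.024 over 1399 genes. Leaving out single libraries gave 9 to 87 higher and 7 to 14 lower, and the cause was not tested. An arm left with 1 library was assumed to vary like the other. Of the 10 most abundant members, 8 to 10 were shared under the alternatives tried. Paralogue shares rest on 124 to 502 counts per library for the 4 well-counted pairs, so changes of a few percentage points were not detectable at this depth.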
